A study of Mus musculus with 4 samples.

Results

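Axon guidance ligands and receptors were followed through maps of the RNA sites that Elavl proteins touch. The set holds 43 genes chosen by name, 18 for ligands and 25 for receptors, and every deposited peak that touched the genomic span of one of them was taken, whichever strand it lay on. That gave 1182 of the 97775 peaks listed for mouse cortex and 38 of the 7335 listed for N2A cells, a mouse neuroblastoma line. The maps came from HITS-CLIP, in which ultraviolet light links a protein to the RNA it touches and the fragments left on the precipitated protein are sequenced. There were 3 cortex samples, behind 1 list whose label carries the term 2month, which the labels do not explain as an age, and 1 N2A sample with a list of its own. The labels name no genotype, strain, antibody or treatment other than the irradiation that all samples share. The degenerate linker was 25 nt long in the cortex samples and 7 nt in the N2A sample, so linker design and material cannot be told apart.

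Guidance ligands are secreted or membrane-bound proteins that attract or repel a growing axon through receptors on its tip. Slits act through Robo receptors, netrins through Dcc, neogenin and the Unc5 receptors, semaphorins through plexins and neuropilins, and ephrins through Eph receptors. In the adult cortex several of these proteins also act at synapses. Elavl proteins bind U-rich and AU-rich RNA in introns and in 3′ untranslated regions, where they are known to influence splicing, stability and translation.

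Each list gave peak positions 50 to 51 nt wide and a p-value per peak from the authors’ peak calling, and gave no number of reads, which leaves the depth unknown. Because a list is 1 set of calls, no sample has values of its own and no spread between replicates could be computed. Positions were read as GRCm38 from their match with its gene spans. Ranks and p-values are therefore used only within a list, no test between the lists was run, and intervals are exact Clopper-Pearson 95% intervals for counting error. PCR copies of a molecule are not separate observations. Of 31 markers of cortical neurons, glia, microglia and endothelium, 21 had a cortex peak and 0 had an N2A peak, whereas sympathoadrenal markers had a peak in 3 of 9 in cortex and 6 of 9 in N2A. Over all coding genes the shares were 40.8% and 14.5%. The cell types differed in cortex, with 6 of 6 for excitatory neurons, 4 of 5 for interneurons and 5 of 6 for astrocytes. Oligodendrocytes had 4 of 5, microglia 1 of 5 and endothelium 1 of 4. In such bulk material, fewer cells of a type and less RNA per cell cannot be told apart, and RNA levels were not measured.

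Sequence was at hand for windows from 250 nt before to 50 nt after annotated start sites, from RefSeq (GRCm38.p6), which held 46 windows for 36 of the 43 genes. Peaks on the same strand fell in 2 of these windows in cortex and in 0 in N2A, against 64 (0.301%) and 14 (0.0658%) of the 21263 windows of coding genes. Both windows are shown because they are the only stretches of these genes where a peak and its letters could be set side by side. Each runs 5′ to 3′ on the minus strand, and capitals mark the bases under the peak if the deposited positions count from 1.
Ntng2, chr2:29248050-29248349: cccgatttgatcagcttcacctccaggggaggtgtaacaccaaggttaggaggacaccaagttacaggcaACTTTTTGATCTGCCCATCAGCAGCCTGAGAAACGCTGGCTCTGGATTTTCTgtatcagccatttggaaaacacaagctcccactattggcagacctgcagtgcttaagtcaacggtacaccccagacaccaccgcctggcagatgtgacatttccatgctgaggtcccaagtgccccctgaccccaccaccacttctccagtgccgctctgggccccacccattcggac
Robo2, chr16:75092721-75093020: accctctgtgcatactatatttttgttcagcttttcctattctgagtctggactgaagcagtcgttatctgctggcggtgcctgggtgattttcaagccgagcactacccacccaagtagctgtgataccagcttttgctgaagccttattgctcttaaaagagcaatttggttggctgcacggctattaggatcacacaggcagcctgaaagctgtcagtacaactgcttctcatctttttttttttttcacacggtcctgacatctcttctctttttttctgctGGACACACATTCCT
The Ntng2 peak, at 29248228 to 29248279 (peak p of 0.00585), lay just outside the gene, before its annotated start at 29248099. The Robo2 peak, at 75092683 to 75092734 (peak p of 0.000192), overlapped the window by 14 nt, just past a start site that lies 355 kb inside the gene span. The run TTTTT, searched on both strands and counted with overlaps, occurred once in the Ntng2 window, under the peak, and at 13 overlapping positions in the Robo2 window, none of them in the 14 nt under the peak. On the given strand 23.8% of coding gene windows hold it, and 38.7% hold it on either strand. ATTTA, which 30.2% of windows hold on either strand, occurred at 0 positions in both windows.

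Most guidance genes carried Elavl peaks in the cortex list and fewer did in the N2A list, which is shorter. At least 1 cortex peak lay in 36 of the 43 genes, against 40.8% of all 21900 coding genes, and at least 1 N2A peak in 10, against 14.5%. Guidance genes are long, with a median span of 162 kb against 17.1 kb for coding genes. Among the 33 guidance genes of 100 kb or more, 31 had a cortex peak, beside 78.7% of all coding genes that long, and 10 had an N2A peak, beside 24%. Of the other 10, shorter genes, 5 had a cortex peak and 0 had an N2A peak, where 36.1% and 13.4% of short coding genes did. All 1182 cortex peaks and all 38 N2A peaks lay on the strand of their gene, although for 7 genes that strand was itself read from the peaks. Of these peaks 42 in cortex and 2 in N2A also touched a noncoding gene or a pseudogene inside the span. The largest group were 20 cortex peaks of Epha6 in the long noncoding gene 4930547E14Rik. Peaks with p under 0.01 were found in 33 guidance genes in cortex and 8 in N2A, beside 33.1% and 10% of all coding genes, and all of the N2A genes and 31 of the cortex genes span 100 kb or more, a length class in which 70.8% and 16.6% of coding genes had such a peak.

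**Figure D1:**
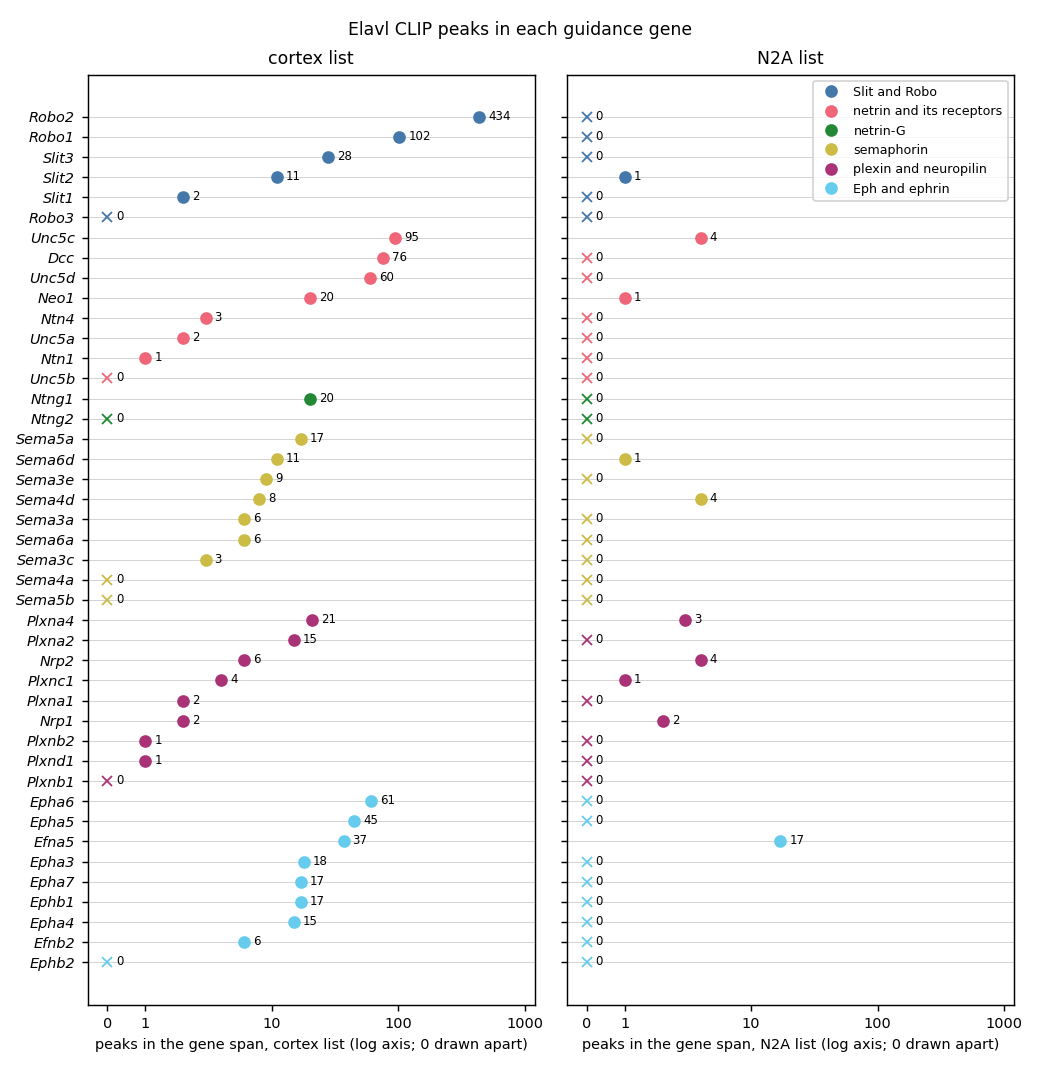
Number of Elavl CLIP peaks in the span of each of the 43 guidance genes in the cortex list (left) and the N2A list (right), on log axes with crosses for 0, coloured by family and without error bars because each list is 1 set of calls. Counts run from 0 to 434 in cortex, where Robo2 leads, and from 0 to 17 in N2A, where Efna5 leads.

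The number of cortex peaks ran from 0 to 434 within the set. In cortex 20 genes had 10 peaks or more, which 10.3% of all coding genes and 47.9% of those of 100 kb or more had, 16 had 1 to 9, and 7 had 0. Over the 43 genes, the Spearman correlation between peak number and span was 0.821 in cortex and 0.0813 in N2A, against 0.538 and 0.234 over all coding genes, and genes are not independent replicates. Per length, the guidance genes of 100 kb or more had a median of 4.77 cortex peaks per 100 kb, beside 4.44 for all coding genes that long, and 19 of the 33 lay above 4.44. The set as a whole was thus close to other long genes in density, and single genes lay far above it.

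Robo receptors and their Slit ligands held 577 of the 1182 cortex peaks (48.8%) and 1 of the 38 N2A peaks. Robo2, a Slit receptor of axons at chr16:73891976-75447443 on the minus strand, had 434 cortex peaks (36.7% of the whole set), and only 12 coding genes had more. Its density of 27.9 peaks per 100 kb was exceeded by 6.01% of coding genes of 100 kb or more. Robo1, the closely related receptor, had 102 peaks, a density that 31.0% of long coding genes exceeded. Robo3, which regulates midline crossing by commissural axons, had 0 in a span of only 17.4 kb. Among the secreted ligands Slit3 had 28 cortex peaks, Slit2 11 and Slit1 2. None of the Robo genes had an N2A peak, and the only N2A peak of the family lay in Slit2. That is 1 of 6 genes, beside 14.5% of all coding genes, and 1 of the 5 of 100 kb or more, beside 24%.

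In Robo2 the strongest peaks lay deep inside the gene. The peak of lowest p was at chr16:74895843-74895894 (minus strand) (peak p of 9.45e-81, rank 903 of the list), 1004 kb from the end of a 1555 kb span. The next were at 74670985 to 74671035 (peak p of 1.22e-70) and at 74906352 to 74906402 (peak p of 1.00e-69), also far from the end. Another strong peak, at 73894587 to 73894637 (peak p of 7.60e-51), lay 2.64 kb from the end, where 7 of the 434 peaks fell within 5 kb. RefSeq lists 3 start sites for Robo2. Before the second, over 355 kb, lay 81 peaks, between the second and the third, over 681 kb, 288, and after the third, over 520 kb, 65. A cortex peak also lay 153 nt from the hairpin of Mir691, a microRNA gene within Robo2. Robo2 held 27.9 cortex peaks per 100 kb, and whether 153 nt is closer than elsewhere in the gene was not tested. In the other guidance genes with a microRNA hairpin and a cortex peak, all with fewer peaks, the nearest lay 2267 to 27997 nt away. Robo1 differed in that its strongest peak, at chr16:73045991-73046041 (plus strand) (peak p of 5.76e-19), lay 1.48 kb from the gene end, although 4 of its 102 peaks lay within 5 kb of that end. The start site listed for Robo1 lies 636 kb inside the span, and 74 of the 102 cortex peaks lay before it.

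The Slit genes showed 3 different layouts. Slit1 had both of its cortex peaks within 0.327 kb of the gene end, the stronger at chr19:41597962-41598013 (minus strand) (peak p of 4.51e-12). Slit3 had 1 of 28 there, and its strongest, at chr11:35380444-35380494 (plus strand) (peak p of 9.90e-20), lay 328 kb from the end. Slit2 had 2 of 11 within 5 kb of the end, including its strongest at chr5:48305140-48305191 (plus strand) (peak p of 0.000235). Its single N2A peak, at 48305413 to 48305464 (peak p of 3.64e-06), lay 222 nt beyond that cortex peak. Slit2 and Slit3 host the microRNA hairpins Mir218-1 and Mir218-2, and the nearest cortex peaks were 2267 and 27997 nt away.

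Among the netrins and their receptors, the cortex peaks lay mainly in Unc5c, Dcc, Unc5d and Neo1. Unc5c, a repulsive netrin receptor at chr3:141465564-141834924 on the plus strand, had 95 in a 369 kb span, 25.7 per 100 kb, a density that 7.37% of coding genes of 100 kb or more exceeded. Dcc, the attractive netrin receptor, had 76 in 1098 kb and Unc5d, another repulsive receptor, 60 in 573 kb. Neo1 (neogenin), which also binds repulsive guidance molecules, had 20, Unc5a had 2 and Unc5b 0. The ligand Ntn1 had 1 cortex peak, at chr11:68209446-68209496 (minus strand), 0.107 kb from the gene end (peak p of 1.22e-17), and Ntn4, a netrin of basement membranes, had 3. N2A peaks lay in 2 of these 8 genes, Unc5c (4) and Neo1 (1), beside 14.5% of all coding genes. Both are among the 6 of 100 kb or more, beside 24% of coding genes that long. The N2A peak of Neo1 was among the weaker of its list (peak p of 0.0496, rank 5831).

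Dcc, Unc5c, Unc5d and the netrin relative Ntng1 had 50% or more of their cortex peaks in the early part of the gene. The first 25% of the span held 56 of 76 cortex peaks in Dcc (73.7%), 60 of 95 in Unc5c (63.2%), 30 of 60 in Unc5d and 12 of 20 in Ntng1. Over all cortex peaks in coding genes of 100 kb or more that share was 31.2%, and over all guidance gene peaks 31.0%. Of the 12 guidance genes of 100 kb or more with at least 20 cortex peaks, these were the 4 that reached 50%, beside 10.2% of the 777 coding genes of that kind. The strongest Dcc peak, at chr18:72220877-72220927 (minus strand) (peak p of 3.31e-41), lay 130 kb from the start, and that of Unc5c, at chr3:141511157-141511208 (plus strand) (peak p of 9.90e-40), 45.6 kb from it. Unc5d had its strongest peak near the other end, at chr8:28648228-28648279 (minus strand) (peak p of 1.31e-40), 1.54 kb from the gene end.

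**Figure D2:**
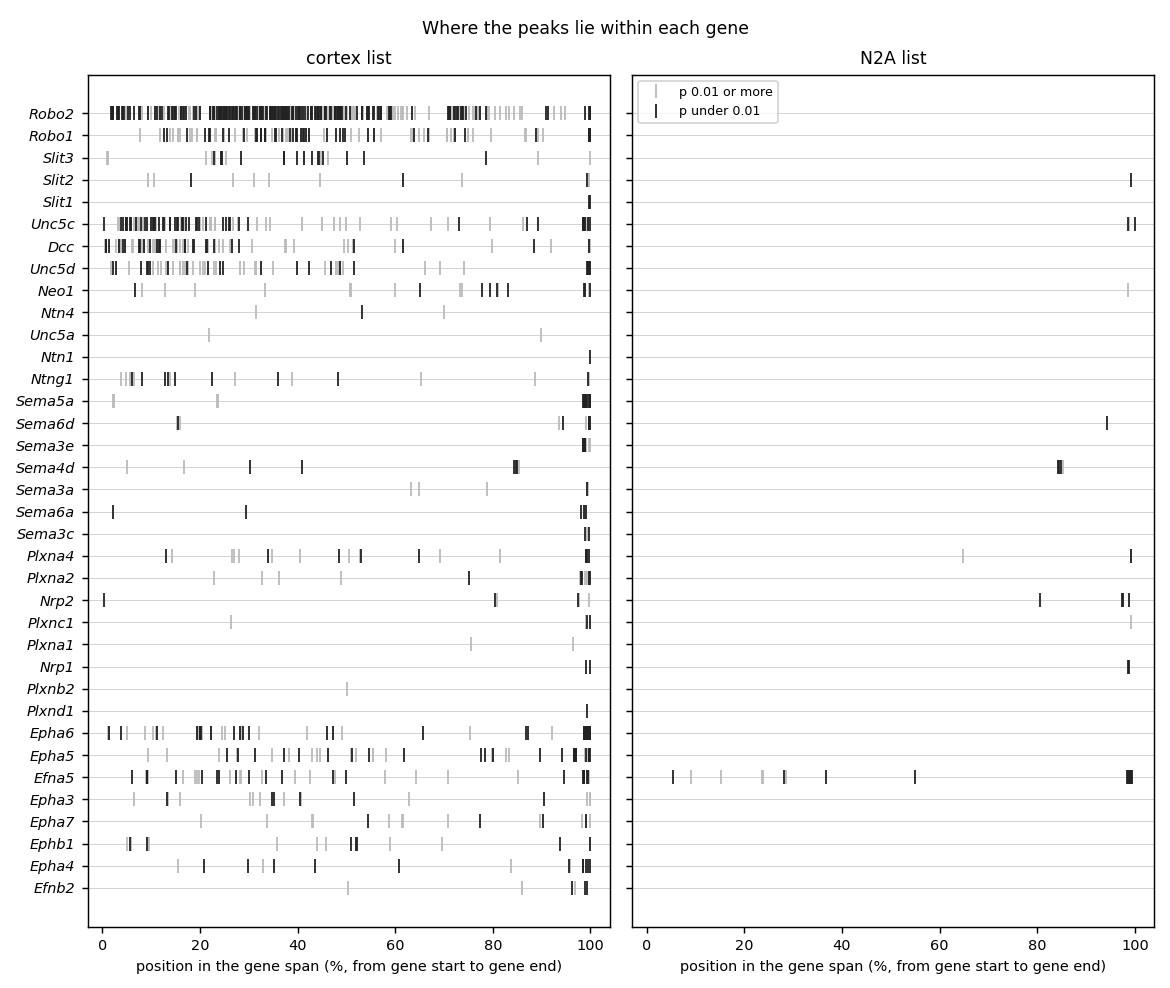
Position of every peak along its gene, from gene start (0%) to gene end (100%), for the 36 genes with peaks in the cortex list (left) and the N2A list (right). Black ticks are peaks with p under 0.01 and grey ticks weaker ones; the first 25% of the span holds 56 of 76 cortex peaks of Dcc and 60 of 95 of Unc5c, and all peaks of Sema3e (9), Sema3c (3) and Slit1 (2) lie at the end.

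The netrin-G genes encode membrane-anchored relatives of netrins that bind synaptic partners. Ntng1 had 20 cortex peaks and 0 in N2A, with the strongest at chr3:109781790-109781840 (minus strand), 1.77 kb from the gene end (peak p of 2.67e-28). Ntng2 had 0 peaks in its span in either list, but 3 cortex peaks and 1 N2A peak lay on its strand within 659 nt beyond the annotated end, in no other gene. The strongest of these cortex peaks, at chr2:29194399-29194450 (minus strand), had a peak p of 3.32e-19 (rank 5319). The N2A peak, at 29194405 to 29194456 (peak p of 0.00129), overlapped it. With the cortex peak before the start site shown above, Ntng2 had peaks on both flanks, and it was counted among the 7 genes without a cortex peak by the rule of the span.

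Semaphorin genes had a large share of their cortex peaks at the gene end. Their median was 6 cortex peaks per gene, beside 0 for all coding genes and 9 for those of 100 kb or more. The 9 genes had 60, and 33 of these (55.0%) lay within 5 kb of the end, against 19.9% over all coding genes and 8.60% over those of 100 kb or more. Without Sema3e the semaphorin share was 47.1%. In the Slit and Robo family it was 2.77%, or 6.29% without Robo2. Sema3e, a secreted semaphorin that can bind Plxnd1 directly, had all 9 of its peaks there, between 0.326 and 3.63 kb from the end, and Sema3c, another secreted one, all 3. Sema3a, the classic secreted repellent, had 3 of 6 there, and its lowest p was 0.00221. Sema6d, a transmembrane semaphorin, had 11 cortex peaks, and the strongest, at chr2:124665834-124665884 (plus strand), 1.93 kb from the end, ranked 1346 (peak p of 1.01e-59). Its 1 N2A peak, at 124635009 to 124635059 (peak p of 0.00184), lay 32.8 kb from the end and overlapped a cortex peak by 42 nt. Sema5a, a transmembrane semaphorin with thrombospondin repeats, had 17, 8 of them near the end, with the strongest at chr15:32691982-32692032 (plus strand) (peak p of 1.79e-33). Sema6a had 6 peaks, 4 of them near the end. Sema4a and Sema5b had 0 in both lists. In N2A 0 of the 5 semaphorin peaks lay near the end, beside 78.3% over all coding genes and 63.7% over those of 100 kb or more. These 5 were the 1 peak of Sema6d and 4 peaks close together in Sema4d, so that share rests on 2 genes.

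Sema4d, a transmembrane semaphorin that signals through Plxnb1, had its own arrangement in both lists. None of its 8 cortex peaks and 4 N2A peaks lay in the last 5 kb of the span. Beyond the annotated end lay 1 cortex peak on its strand and in no other gene, at chr13:51684567-51684618 (peak p of 0.0718), and another inside the neighbouring gene Secisbp2. Instead 4 cortex peaks, between 51701283 and 51702513 on the minus strand of chromosome 13, and all 4 N2A peaks, between 51701452 and 51702495, shared a stretch 15.8 to 17.0 kb before that end. The strongest N2A peak there, at 51701896 to 51701946, had rank 354 in its list. The strongest cortex peak of the gene, at 51702106 to 51702156, lay in the same stretch and had a peak p of 0.000577. Plxnb1 had 0 peaks in both lists.

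Plexins and neuropilins, the receptors of semaphorins, had peaks in 8 of 9 genes in cortex and 4 of 9 in N2A, beside 40.8% and 14.5% of all coding genes. Among the 5 of them of 100 kb or more the counts were 5 and 4, beside 78.7% and 24%. Within 5 kb of the end lay 26 of the 52 cortex peaks, against 19.9% over all coding genes and 8.60% over those of 100 kb or more. Plxna4, a class A plexin, had 21 cortex peaks, the strongest at chr6:32437591-32437642 (minus strand) (peak p of 1.36e-35), 293 kb from the end. Plxna2 had 15, 10 of them near the end, the strongest at chr1:194813305-194813356 (plus strand) (peak p of 1.41e-62, rank 1271). The others had 1 to 6 cortex peaks, apart from Plxnb1. Nrp2, a co-receptor for secreted semaphorins, had 6 cortex peaks and 4 N2A peaks. Its strongest cortex peak, chr1:62815693-62815743 (plus strand), overlapped its strongest N2A peak, chr1:62815701-62815751. Nrp1, its paralog, had 2 in each list, all within 2 kb of the end on the plus strand of chromosome 8, at 128503979 and 128505273 in cortex and at 128503531 and 128503671 in N2A by their starts. No Nrp1 peak of one list overlapped one of the other. A further cortex peak, at 128506347 to 128506397 (peak p of 0.00114), lay on its strand 896 nt beyond the annotated end. It touched no other gene and was not counted by the rule of the span. Plxna4 had 3 N2A peaks and Plxnc1, a receptor of Sema7a, 1, which overlapped the strongest Plxnc1 cortex peak, at chr10:94791969-94792019 (minus strand). That N2A peak of Plxnc1 was among the weaker of its list (peak p of 0.0378, rank 5431).

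Of the 7 Eph receptors, all of them genes of 100 kb or more, 6 had a cortex peak and 0 had an N2A peak, beside 78.7% and 24% of coding genes that long, so the cortex count was near its background. Cortex peaks were found in Epha6 (61), Epha5 (45), Epha3 (18), Epha7 (17), Ephb1 (17) and Epha4 (15), and Ephb2 had 0. The strongest Epha4 peak lay at chr1:77367329-77367379 (minus strand), 0.172 kb from the gene end (peak p of 8.99e-51, rank 1676), and that of Epha5 at chr5:84055426-84055476 (minus strand), 0.690 kb from it (peak p of 1.45e-38). Epha6 had its strongest at chr16:59645998-59646049 (minus strand), 4.59 kb from the end (peak p of 2.54e-31). That peak and the other 5 Epha6 peaks near the end also lie in the span of 4930547E14Rik. Strand was not used for that overlap, so whether they belong to Epha6 alone is not shown. Efnb2, a transmembrane ephrin, had 6 cortex peaks, 4 of them near the end, and 0 in N2A.

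Efna5, a membrane-anchored ephrin that repels axons through EphA receptors, lies at chr17:62602957-62881317 on the minus strand and had 37 cortex peaks and 17 N2A peaks. Only 2 coding genes had more N2A peaks, against 464 with more cortex peaks, and at least 10 N2A peaks were found in 0.21% of coding genes and 0.535% of those of 100 kb or more. Within 5 kb of the gene end lay 6 of the cortex peaks and 8 of the N2A peaks. The strongest N2A peak, at chr17:62604292-62604343 (minus strand) (peak p of 2.05e-11), lay 92 nt from a cortex peak at 62604150 to 62604200. The strongest cortex peak, at 62607194 to 62607245 (peak p of 2.04e-11), overlapped an N2A peak at 62607215 to 62607265 by 31 nt. The other 9 N2A peaks lay 125 to 263 kb from the end, and 5 of them overlapped a cortex peak by 38 to 50 nt. In all, 8 of the 17 N2A peaks overlapped a cortex peak.

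**Figure D3:**
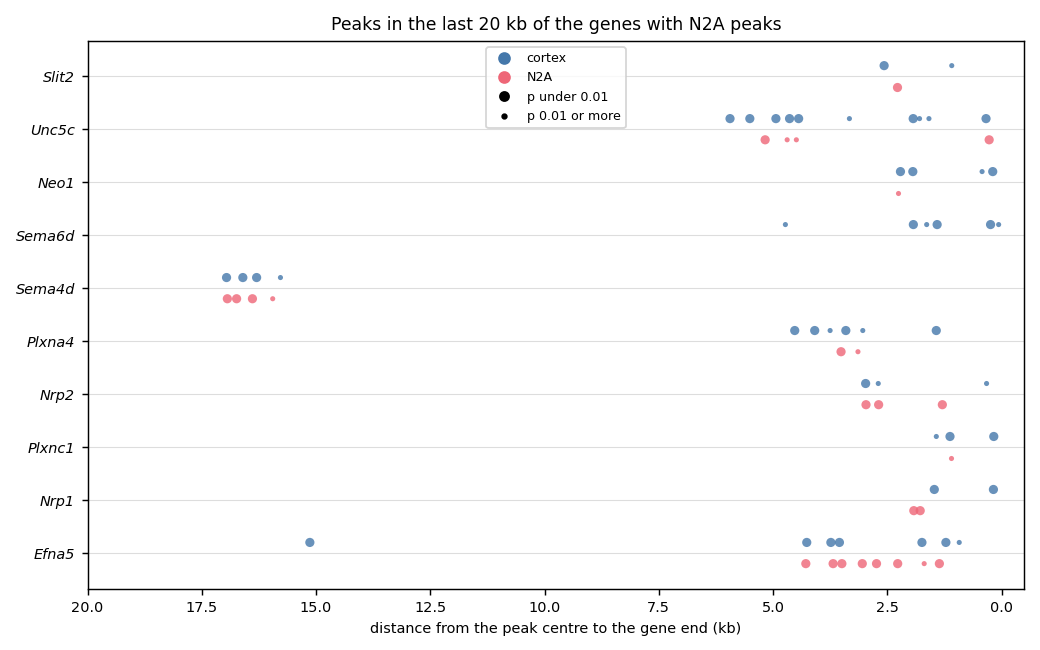
Distance from each peak to the gene end within the last 20 kb of the 10 genes with N2A peaks, cortex above N2A in each row; large points have p under 0.01. In Sema4d both lists have 4 peaks between 15.8 and 17.0 kb, and in Efna5 6 cortex and 8 N2A peaks lie within 5 kb.

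Across the set, peaks within 5 kb of the gene end made up 11.9% (10.1 to 13.9) of the cortex peaks and 55.3% (38.3 to 71.4) of the N2A peaks. Over all coding genes these shares were 19.9% and 78.3%, and over coding genes of 100 kb or more 8.60% and 63.7%. The cortex share rested on Robo2 and was 17.9% without it. A cortex peak near the end was found in 32 guidance genes, beside 31.4% of all coding genes and 58.7% of those of 100 kb or more, where 29 of 33 guidance genes had one. In N2A 8 guidance genes had one, beside 12.3% and 17.3%. A peak farther than 5 kb from the end was found in 30 guidance genes in cortex and 6 in N2A, beside 29.6% and 4.11% of all coding genes. Among those of 100 kb or more the counts were 26 and 6 of 33, beside 75.5% and 11.8%. For 6 of the 36 genes with a cortex peak all of them were near the end, beside 27.5% of all coding genes with a cortex peak. Among genes of 100 kb or more this was 5 of 31, beside 4.03%. Most of the 6 had few cortex peaks, with 1 each in Ntn1 and Plxnd1, 2 each in Slit1 and Nrp1, 3 in Sema3c and 9 in Sema3e. The strongest cortex peak was near the end in 25 of 36 genes (69.4%), beside 59.7% of coding genes with peaks and 43.7% of those of 100 kb or more. Of the cortex peaks near the end 62.4% had p under 0.01, against 44.0% of the 1041 peaks elsewhere in the spans, and for all coding genes the shares were 67.5% and 46.5%. In the first 5 kb from the span start lay 3 cortex peaks, 0.254% (0.0524 to 0.740), against 6.28% over all coding genes and 2.00% over those of 100 kb or more. The span start is not always a listed start site, as in Robo1. The 3 peaks were 1 each in Nrp2, Sema6a and Unc5c, and such a peak was found in 16.2% of all coding genes and 26.6% of those of 100 kb or more. In N2A 0 guidance genes had one, beside 2.02% and 1.19%.

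The cortex and N2A lists were then compared for the weight each gives to guidance genes. Their peaks were 1.21% (1.14 to 1.28) of the cortex list and 0.518% (0.367 to 0.710) of the N2A list, a cortex over N2A ratio of 2.33 (1.69 to 3.31). The ratio rested on single genes, since it was 1.48 (1.07 to 2.10) without Robo2 and 4.09 (2.66 to 6.63) without Efna5. Coding genes of 100 kb or more as a whole had a ratio of 3.06 (2.90 to 3.23). In the same number of peaks as N2A, the 7335 strongest cortex peaks, 17 of the 43 genes had a peak, beside 13.8% of all coding genes. All 17 were among the 33 guidance genes of 100 kb or more, where 37% of coding genes that long had one. Efna5, Nrp1, Nrp2, Neo1, Plxnc1, Sema4d and Slit2, all with N2A peaks, were not among these 17. How often that holds for coding genes with N2A peaks was not counted, so their absence is not a trait of guidance genes.

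**Figure D4:**
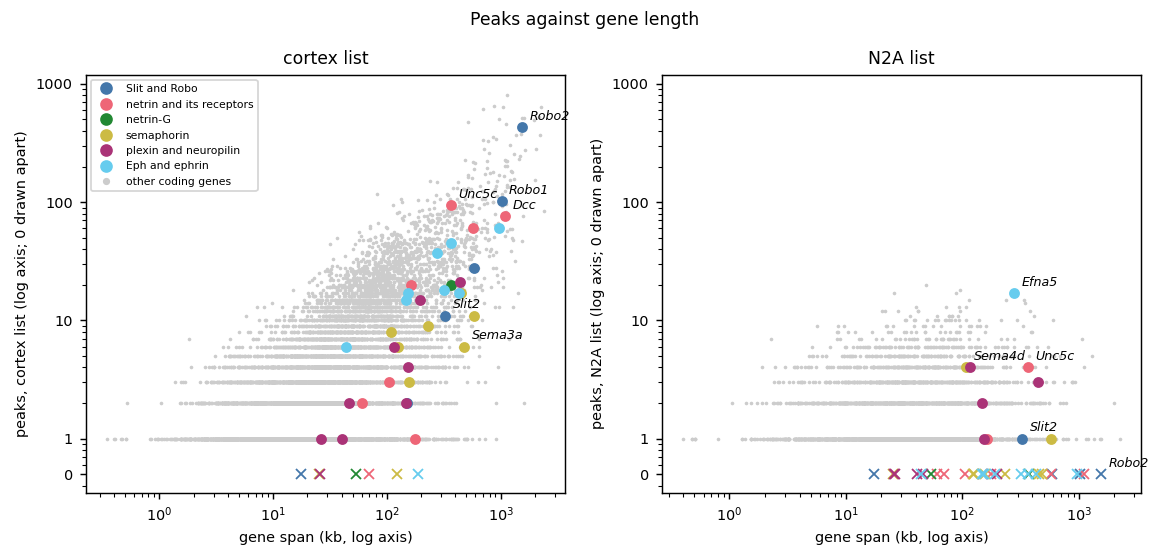
Peaks per gene against gene span in the cortex list (left) and the N2A list (right), on log axes with 0 drawn apart; coloured points and crosses are the 43 guidance genes and grey dots other coding genes with a peak. Robo2 (434 peaks) and Unc5c (95) stand high in cortex, and Efna5 (17) in N2A, while Robo2, the longest guidance gene, has 0 N2A peaks.

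Each of the 10 guidance genes on the N2A list was on the cortex list too, as were 91.5% of coding genes with N2A peaks, and these 10 of 36 stand beside 32.6% of coding genes with cortex peaks that had an N2A peak as well. As a share of its list, Efna5 had 0.0378% of cortex peaks and 0.232% of N2A peaks, a ratio of 0.163 (0.0897 to 0.309). Nrp2 had a ratio of 0.113 (0.0267 to 0.542) and Sema4d of 0.150 (0.0402 to 0.681). The intervals of the other 7 genes included 1, with ratios of 0.0750 (Nrp1) to 1.78 (Unc5c). A ratio below 1 was found for 8 of the 10 genes, beside 85.7% of the 2914 coding genes with peaks in both lists, whose median was 0.225. Of the 38 N2A peaks, 15 (39.5%, 24.0 to 56.6) overlapped a cortex peak by at least 1 nt on the same strand, against 42.5% of N2A peaks in coding genes. Within 200 nt of a cortex peak lay 27 (71.1%), close to the 69.1% of N2A peaks in coding genes.

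Other genes of the pathway, listed by hand and not members of the set, had cortex peaks in 44 of 69 and N2A peaks in 19 of 69, beside 40.8% and 14.5% of all coding genes. For 22 other ligands, with a median span of 13.3 kb, the counts were 8 in cortex and 2 in N2A. For 11 other receptors, with a median span of 18.7 kb, they were 3 and 0. Dscam, a netrin-binding adhesion molecule with a 584 kb span, had 42 of the 45 cortex peaks of those receptors. For 36 cytoplasmic effectors, with a median span of 118 kb, the counts were 33 and 17. All 21 of these effectors of 100 kb or more had a cortex peak and 10 had an N2A peak, beside 78.7% and 24% of coding genes that long. Rac1, a small GTPase that drives the leading edge, had 12 cortex peaks (lowest peak p of 7.63e-261) and 2 N2A peaks. Dpysl2 (CRMP2), which mediates semaphorin signals, had 18 and 10, and Dpysl3, its relative, 4 and 8. Enah, an actin regulator of filopodia, had 53 and 0.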

How the data were processed

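HITS-CLIP peaks of cortex and N2A cells were taken from the 2 deposited lists. Per the file headers, each holds peak positions with strand, and the p-value that the authors' calling gave every peak. Novoalign and hg19 appear in the submitters' processing notes. The peak caller, its filters, any adjustment of the p-value and the merging of the 3 cortex samples were not given in the sources used here. Chromosome names are those of mouse, and coordinates were read as GRCm38 because peaks fall in RefSeq gene spans of GRCm38.p6 on the gene's strand (98.2% of cortex and 97.1% of N2A peaks in coding genes of known strand). Whether the deposited coordinates count from 0 or 1 is not stated. Values of both columns were used as deposited.

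A peak was counted for every gene whose span it touched by at least 1 nt. All 43 genes matched by symbol. Strand came from the RefSeq promoter table for 36 of them and from the peaks for the others. Distance to the gene end was measured from the peak's centre on its own strand. Exons and a genome sequence were not used here, so introns, untranslated regions and motifs under most peaks were not examined. Backgrounds are 21900 coding genes, or the 2429 of 100 kb or more, a length class chosen after the data were seen. The counting was tested on simulated data, where all 200 genes were counted right. The genes and lists were chosen with earlier results of these data known. Genes given in full are the 10 with the most cortex peaks, the 10 with the lowest cortex p, those with N2A peaks and those without cortex peaks, 27 in all. Others named were chosen after their values were seen. Analyses used Python 3.11.15, pandas 2.3.3, numpy 2.4.6 and scipy 1.17.1.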

Additional observations from a re-analysis of the deposited data

How the results depend on the processing

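Of 42 alternatives, 29 left the value within its interval or within 1.5 times the count and 13 did not. A count or a share within 1 list has no direction to turn, and the cortex over N2A ratio stayed above 1 in its 3 alternatives. Some of the 29 could not change the value. Robo2 has 0 N2A peaks to leave out, and all peaks already lay on the strand of their gene. The number of guidance genes with a cortex peak was 17 in the 7335 strongest cortex peaks, and 33 to 37 under the others tried. In N2A it was 8 to 11. The share of the cortex list was 1.11% with p under 0.01, 1.10% in the stronger 50%, 0.873% in the 7335 strongest peaks and 0.765% without Robo2. The share of cortex peaks near the gene end was 7.11% within 2 kb, 16.3% in the stronger 50% and 17.9% without Robo2, and in N2A 18.4% within 2 kb. The cortex over N2A ratio was 1.68 (1.11 to 2.59) with the 7335 strongest cortex peaks, 1.48 without Robo2 and 4.09 without Efna5. N2A peaks within 200 nt of a cortex peak made up 71.1%, beside 69.1% of N2A peaks in coding genes. Settings that leave out a gene or lengthen the spans were chosen after seeing the data. For shifts not set by the alternative's own construction, the cause was not tested. No paired analysis was possible because each group has 1 peak list and no value per sample, and for the same reason no sample could be left out. Depth is unknown, so a gene without a peak is not shown to be unbound.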
